A study of Mus with 96 samples.

Results

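The 9 genes described here encode enzymes that carry sterol synthesis from the squalene step to cholesterol: Fdft1, Sqle, Lss, Cyp51, Msmo1, Nsdhl, Hsd17b7, Sc5d and Dhcr7. They were chosen by gene symbol from a table of 55487 genes, with their difference between the genotype labels on chow already known from earlier results of these data. All 9 passed the filter on low counts that left 15548 genes for testing. The genotype difference is therefore described below with no test, whereas the diet effect within a genotype, the day profile within a group and the difference between the sexes were tested.

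Squalene synthase commits farnesyl pyrophosphate, the product of the mevalonate pathway, to sterols. Squalene is then oxidised and cyclised to lanosterol, which loses its extra methyl groups and has its double bonds rearranged until cholesterol is formed. In liver these genes are classical targets of SREBP2, a transcription factor held inactive when membrane sterol is plentiful, and cholesterol in food is known to lower their messenger RNA.

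Livers came from 96 mice aged 8 to 10 weeks on a C57BL/6J background. Mice labelled Hep-Bmal1KO carried AlbCre/+ and Bmal1flx/flx, so that Cre under the albumin promoter deletes the clock gene Bmal1 (Arntl in the count table) in hepatocytes. The paper describes this deletion as specific to hepatocytes. Mice labelled Hep-Bmal1WT were Alb+/+ Bmal1flx/flx littermates, so every mouse carried the floxed allele and the controls lacked Cre. For 2 weeks each mouse ate normal chow (NC) or cdHFD, a diet rich in fat and deficient in choline that held 60% fat and 2% cholesterol. It also held less protein and less carbohydrate than chow, and its methionine content was specified. The effects of choline, methionine, protein, carbohydrate, fat and cholesterol cannot be told apart. Each of the 4 combinations of label and diet held 24 mice, 4 at each of ZT 2, 6, 10, 14, 18 and 22, where ZT counts hours after lights on. Both sexes were present in every group of 4.

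Libraries were made by BRB-seq, which reads the 3′ end of polyadenylated RNA, and held 1861740 to 9718615 reads on genes with a median of 6412078.5. Levels are in CPM, reads of a gene scaled to a common library total and corrected by TMM factors, and since the tags are not scaled to gene length, levels are compared between mice and never between genes. Each column of the library plate held a single combination of label and diet, so the plate column cannot be told apart from the groups. Within a combination each column held only neighbouring times, so plate column and time of day cannot be fully told apart either. On 10 clock genes and on 20 other genes, 7 of 96 libraries sat nearer the other genotype label than their own on both sets, and 7 more did so on one set only. On NC these were 2 Hep-Bmal1WT libraries, at ZT 6 and ZT 18, and 2 Hep-Bmal1KO libraries, at ZT 6 and ZT 10. On cdHFD they were Hep-Bmal1WT libraries at ZT 10 and ZT 14 and a Hep-Bmal1KO library at ZT 14. The fitted differences between labels, the rhythm calls in Hep-Bmal1KO livers on NC and the diet effect by sex are given with and without them. The spread and the correlations between livers of the same group and time are given with them only. Y-linked reads went against the labelled sex in 0 of 96 libraries, and 1 library labelled female had under 10 reads of Xist, the RNA that coats the inactive X chromosome. Arntl stood at 9.32 ± 7.97 CPM (SD, n = 24) in Hep-Bmal1WT and 7.26 ± 2.85 CPM (SD, n = 24) in Hep-Bmal1KO livers on NC, and at 10.5 ± 8.46 and 6.08 ± 2.80 CPM on cdHFD. Where these 3′ reads lie relative to the floxed part of the gene was not analysed here, so they are not used to check the deletion.

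The enzymes act in the order in which they follow here, with positions on assembly GRCm38.p6 from RefSeq. Fdft1 (ENSMUSG00000021273; chromosome 14, 63145150 to 63181687) is squalene synthase, the first committed step. Sqle (ENSMUSG00000022351; chromosome 15, 59315092 to 59331193) is squalene epoxidase, an oxygen-dependent and flux-controlling step. Lss (ENSMUSG00000033105; chromosome 10, 76531565 to 76557139) is lanosterol synthase, which closes the rings. Cyp51 (ENSMUSG00000001467; chromosome 5, 4080674 to 4104697) is the cytochrome P450 that starts the removal of the methyl group at carbon 14. Msmo1 (ENSMUSG00000031604; chromosome 8, 64718123 to 64733578), Nsdhl (ENSMUSG00000031349; chromosome X, 72918521 to 72958528) and Hsd17b7 (ENSMUSG00000026675; chromosome 1, 169949535 to 169969242) act as one complex that removes the methyl groups at carbon 4, as oxidase, decarboxylating dehydrogenase and ketoreductase. Sc5d (ENSMUSG00000032018; chromosome 9, 42251592 to 42264300) introduces a ring double bond late in the pathway. Dhcr7 (ENSMUSG00000058454; chromosome 7, 143823167 to 143848410) reduces the last ring double bond and so makes cholesterol on the branch that passes through 7-dehydrocholesterol.

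On NC all 9 enzymes had a higher fitted level in Hep-Bmal1KO than in Hep-Bmal1WT livers, by a median log2 difference of 0.63 against -0.01 over all genes tested. The largest difference was that of Msmo1, 0.81 (SE 0.12), and the smallest that of Sc5d, 0.13 (SE 0.076). On cdHFD the differences were small and of mixed sign, with a median of -0.12, 3 of 9 above 0, and a range from -0.27 for Fdft1 to 0.14 for Sqle. The change of the genotype difference with diet was below 0 for all 9, from -0.93 for Msmo1 to -0.31 for Sc5d. These values chose the enzymes and are a description.

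Among the enzymes of the methyl-removing complex, Msmo1 had the largest difference. Its level ran from 90.4 to 369.9 CPM with a median of 168 in the 24 Hep-Bmal1WT livers on NC, and from 114 to 550.0 CPM with a median of 339 in the 24 Hep-Bmal1KO livers. The groups overlapped, and the median of the second lay near the top of the first. On cdHFD Msmo1 lay between 9.10 and 24.6 CPM with a median of 17.3 in Hep-Bmal1WT and between 7.66 and 25.2 CPM with a median of 15.5 in Hep-Bmal1KO livers, ranges that nearly coincided. Its partners had medians on NC, in Hep-Bmal1WT and Hep-Bmal1KO livers, of 61.9 and 102 CPM for Nsdhl and of 37.8 and 59.2 CPM for Hsd17b7. The log2 difference between labels was 0.64 (SE 0.091) for Nsdhl and 0.43 (SE 0.11) for Hsd17b7 on NC, and 0.04 (SE 0.13) and -0.04 (SE 0.095) on cdHFD.

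The enzymes of the first steps were also higher in Hep-Bmal1KO livers on NC. Fdft1 ran from 124 to 377 CPM with a median of 197 in Hep-Bmal1WT and from 155 to 539 CPM with a median of 349 in Hep-Bmal1KO livers on NC. On cdHFD it ran from 26.8 to 60.4 CPM with a median of 41.4, and from 27.2 to 59.9 CPM with a median of 33.4. Fdft1 thus had the higher median in Hep-Bmal1KO livers on NC and the lower one on cdHFD, with log2 differences of 0.63 (SE 0.100) and -0.27 (SE 0.073). Lss had medians of 42.7 and 73.3 CPM on NC in Hep-Bmal1WT and Hep-Bmal1KO livers, and 7.02 and 7.19 CPM on cdHFD. Cyp51 had medians of 142 and 255 CPM on NC, and 10.5 and 8.69 CPM on cdHFD. The log2 difference between labels on NC was 0.73 (SE 0.12) for Lss and 0.67 (SE 0.080) for Cyp51, that is 1.66-fold and 1.59-fold. For Sqle it was 0.47 (SE 0.12) on NC and 0.14 (SE 0.16) on cdHFD.

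Sc5d had the smallest difference of the 9 on NC. It ran from 487 to 1037 CPM with a median of 642 in Hep-Bmal1WT and from 445 to 1351 CPM with a median of 714 in Hep-Bmal1KO livers on NC, and the ranges overlapped over most of their length. On cdHFD it ran from 135 to 205 CPM with a median of 169, and from 80.8 to 254 CPM with a median of 144. Dhcr7, which acts next to it on the pathway, ran from 55.2 to 168 CPM with a median of 101 in Hep-Bmal1WT and from 82 to 262 CPM with a median of 160.0 in Hep-Bmal1KO livers, with a log2 difference of 0.56 (SE 0.073).

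**Figure D1:**
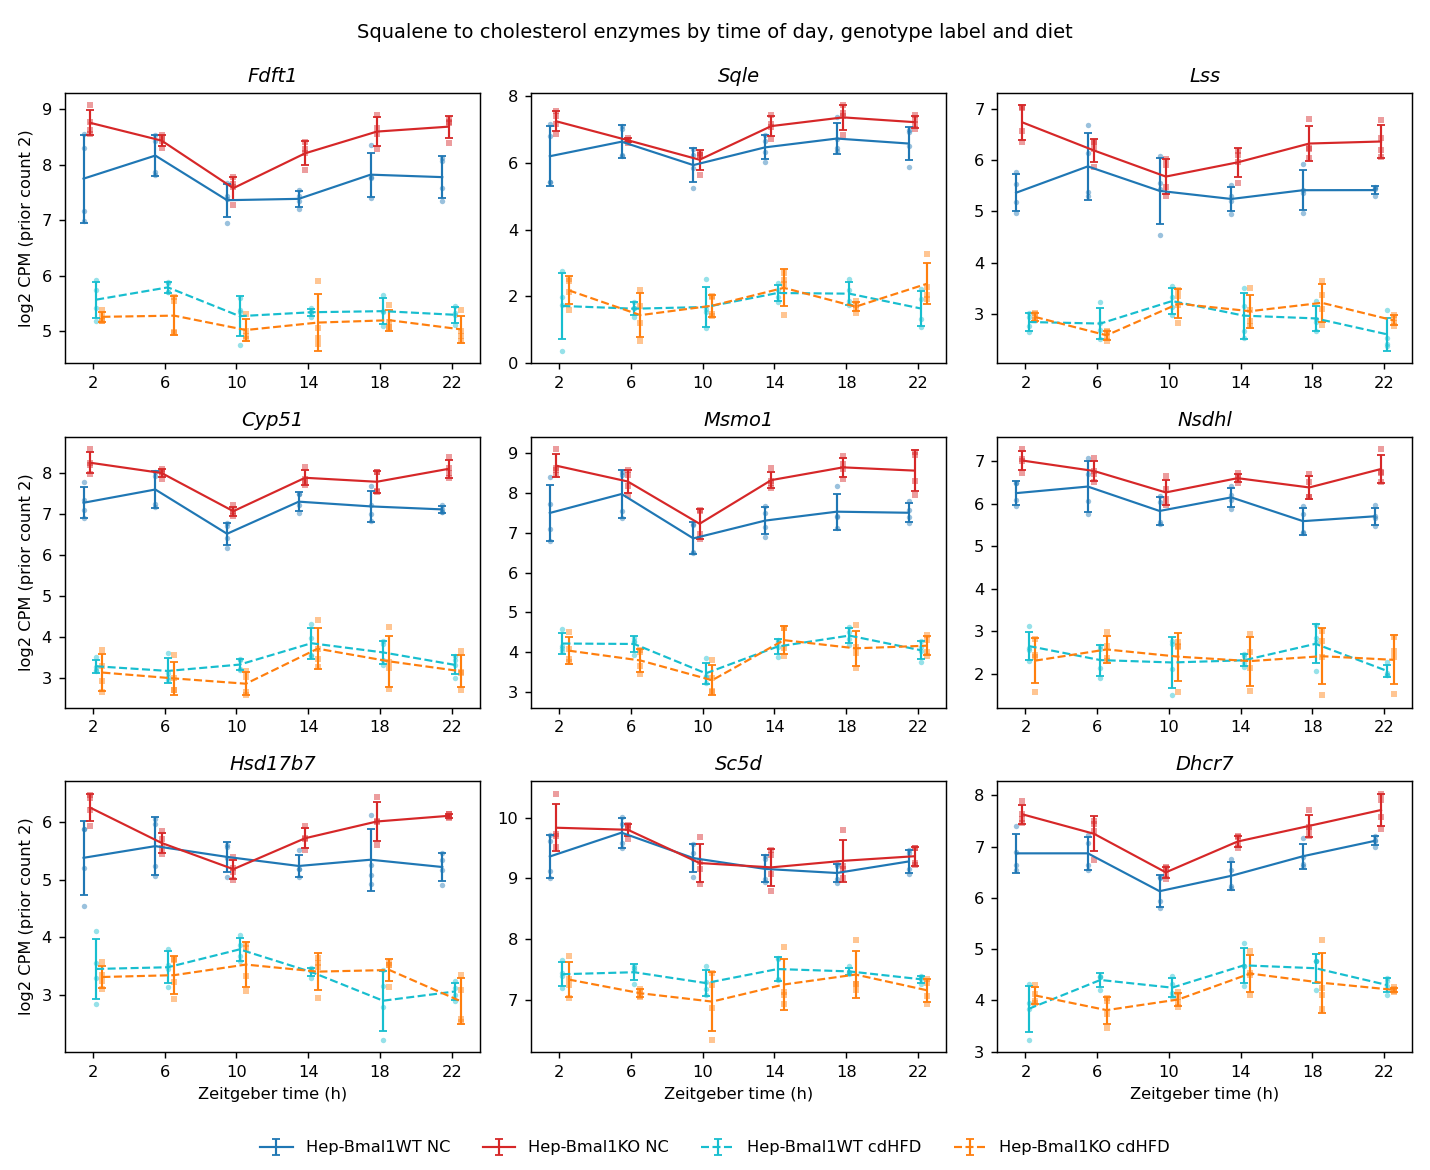
Level of each enzyme as log2 CPM (prior count 2) against zeitgeber time in hours, with points for single livers, lines for the means and bars for the SD of 4 livers, for the 4 combinations of genotype label and diet. On NC (solid lines) the Hep-Bmal1KO means lay above the Hep-Bmal1WT means for all 9 enzymes at ZT 2 and ZT 22, and on cdHFD (dashed lines) all lines lay far lower and close together.

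**Figure D2:**
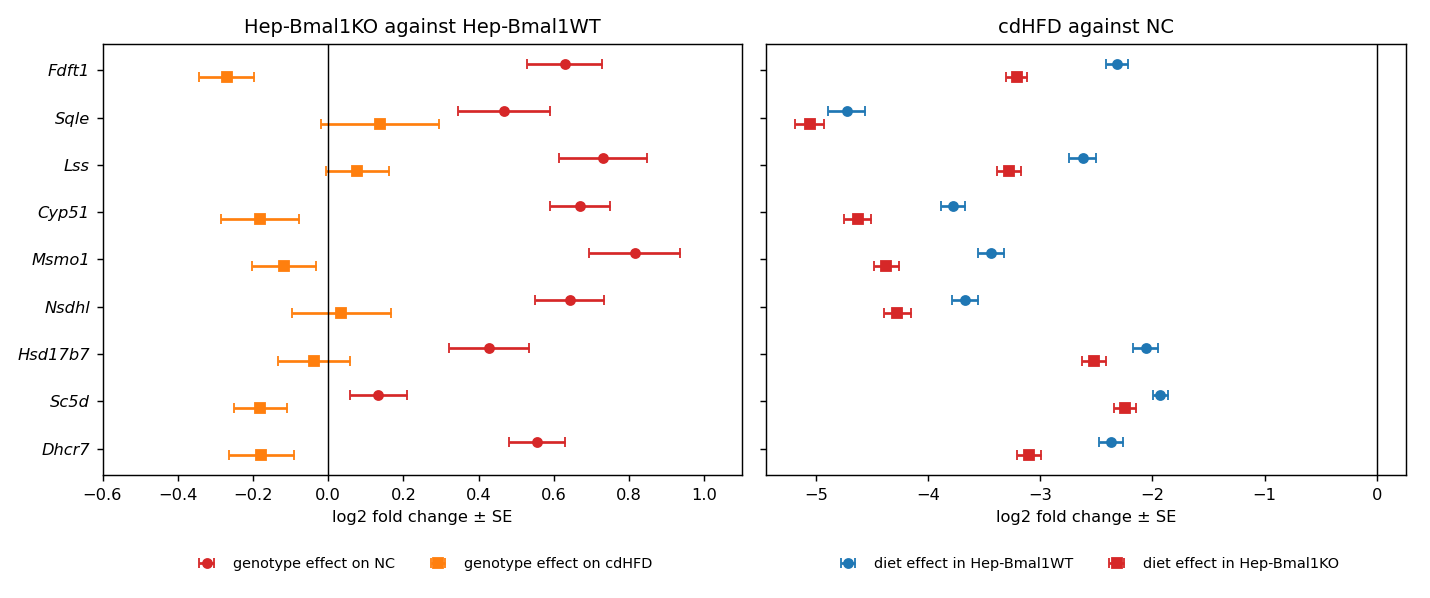
Fitted log2 fold change of each enzyme with its SE, on the left between the genotype labels on each diet and on the right between the diets in each genotype label. The differences between labels on NC were all above 0, from 0.13 to 0.81, and the diet differences were all below 0, from -5.06 to -1.93; the scales of the panels differ.

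The difference between labels on NC was not even over the day. The median log2 difference over the 9 enzymes was 0.98 at ZT 2, 0.31 at ZT 6, 0.28 at ZT 10, 0.64 at ZT 14, 0.66 at ZT 18 and 0.91 at ZT 22. It was thus largest around the end of the night and the start of the day and smallest in the later light phase. All 9 enzymes had the higher mean log2 CPM in Hep-Bmal1KO livers at every time but ZT 10, where the differences of Hsd17b7 and Sc5d were -0.21 and -0.08. At ZT 6 the means of untransformed CPM were slightly lower in Hep-Bmal1KO livers for Sqle, 102 against 103 CPM, and for Hsd17b7, 49.88 against 49.96 CPM. All 4 Hep-Bmal1KO livers lay above all 4 Hep-Bmal1WT livers for 6 enzymes at ZT 2, against 2.93% of all genes tested, and for 8 at ZT 22, against 3.51%. The same held for 6 enzymes at ZT 14 (5.35% of all genes), 4 at ZT 18 (1.95%), 1 at ZT 10 (2.73%) and 0 at ZT 6 (2.3%). The largest single difference was that of Lss at ZT 2, 1.37 on the log2 scale, and Msmo1 had 1.19 at ZT 2 and 1.12 at ZT 18.

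Without the 7 discordant libraries the median difference between labels on NC was 0.70, and that on cdHFD was -0.15. All 9 enzymes were higher on NC, from 0.12 for Sc5d to 0.94 for Msmo1. Since these libraries were left out for resembling the other label, leaving them out can itself widen a difference between labels. The values without them are a description and no support for that difference. At ZT 18 the median over the enzymes moved from 0.66 to 0.91, at ZT 6 from 0.31 to 0.51 and at ZT 10 from 0.28 to 0.19. The discordant Hep-Bmal1WT livers at ZT 6 and ZT 18 held the highest mean enzyme level of their groups, as the plot of single libraries shows. In males alone the median on NC was 0.72 and in females alone 0.49.

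**Figure D3:**
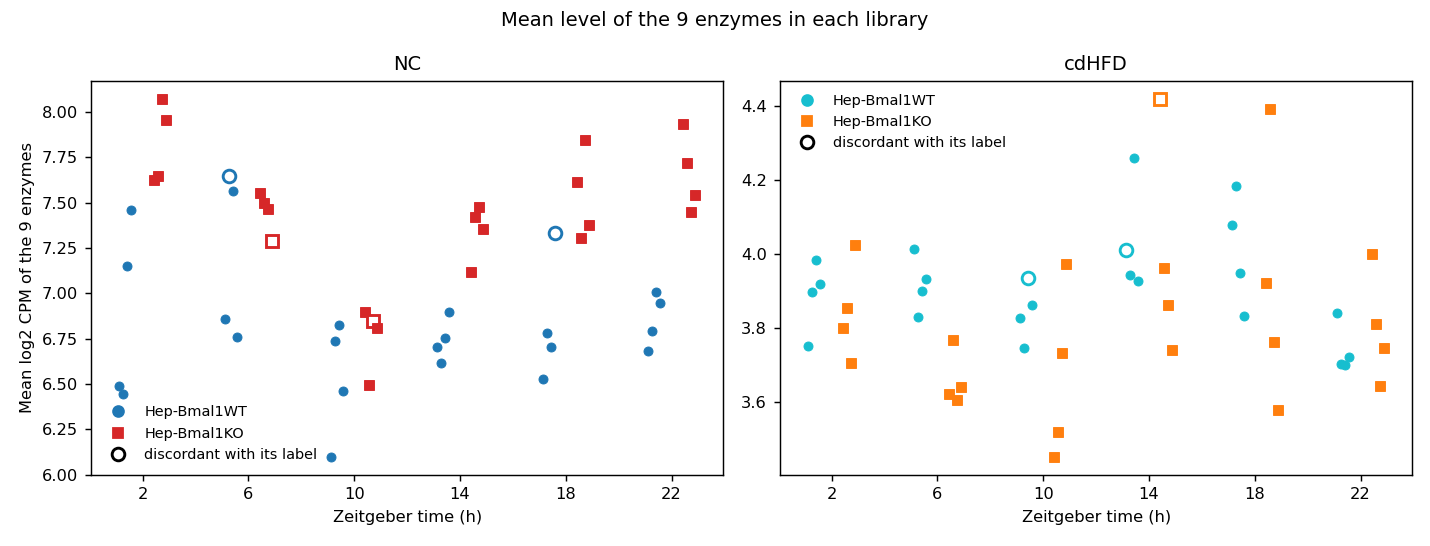
Mean log2 CPM of the 9 enzymes in each library against zeitgeber time, by genotype label, on NC (left) and cdHFD (right), with open symbols for libraries that sat nearer the other label on both gene sets; the vertical scales of the panels differ. At ZT 10 the 2 labels overlapped on NC, and at ZT 22 the lowest Hep-Bmal1KO library (7.45) lay above the highest Hep-Bmal1WT library (7.01).

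Feeding cdHFD lowered every one of the 9 enzymes in both genotypes. In Hep-Bmal1WT livers the log2 fold change ran from -4.72 (SE 0.17) for Sqle to -1.93 (SE 0.068) for Sc5d, with a median of -2.62 against 0.01 over all genes. In Hep-Bmal1KO livers it ran from -5.06 (SE 0.13) for Sqle to -2.24 (SE 0.098) for Sc5d, with a median of -3.28. All 9 were called lower in both, with adjusted p from 8.74e-33 to 1.16e-21 in Hep-Bmal1WT and from 4.57e-35 to 1.59e-25 in Hep-Bmal1KO (quasi-likelihood F test of edgeR, adjusted by Benjamini-Hochberg across 15548 genes). The diet moved much of the transcriptome: 27.3% of all genes were called lower and 28.4% higher in Hep-Bmal1WT livers, and 29.6% lower and 32.4% higher in Hep-Bmal1KO livers. The Hep-Bmal1KO livers on NC, known to be higher when the enzymes were chosen, are the baseline of the fall in that genotype. The larger fall in Hep-Bmal1KO livers thus restates the change of the genotype difference with diet. It is a description here and below and was not tested.

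Sqle fell furthest. It ran from 37.6 to 166 CPM with a median of 86.5 in Hep-Bmal1WT livers on NC and from 0.985 to 6.50 CPM with a median of 3.28 on cdHFD, and in Hep-Bmal1KO livers from 49.5 to 211 CPM with a median of 132 and from 1.27 to 9.42 CPM with a median of 3.57. The highest cdHFD liver lay far below the lowest NC liver in both genotypes, and the mean on cdHFD was 3.73% and 2.95% of that on NC. On cdHFD these levels rested on 8 to 106 reads a library. By size of the fall Sqle ranked 37 of 15548 genes in Hep-Bmal1WT and 25 in Hep-Bmal1KO livers.

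The next largest falls were those of the enzymes that remove the methyl groups. Cyp51 fell 13.7-fold in Hep-Bmal1WT and 24.8-fold in Hep-Bmal1KO livers, Nsdhl 12.7-fold and 19.4-fold, and Msmo1 10.9-fold and 20.7-fold. Hsd17b7, the ketoreductase of the same complex, fell less, 4.17-fold and 5.74-fold, with the highest cdHFD liver at 17 CPM and the lowest NC liver at 23.1 CPM in Hep-Bmal1WT. Fdft1 fell 4.97-fold and 9.26-fold, and Lss 6.16-fold and 9.69-fold. Of the last enzymes, Dhcr7 fell 5.17-fold and 8.60-fold, and Sc5d had the smallest fall of the 9 in both genotypes, 3.81-fold and 4.74-fold. For all 9 enzymes every cdHFD liver lay below every NC liver of the same genotype, which held for 1.54% of all genes tested in Hep-Bmal1WT and 2.55% in Hep-Bmal1KO livers. At single times the fall ran from 1.61 to 5.0 on the log2 scale in Hep-Bmal1WT and from 1.66 to 5.67 in Hep-Bmal1KO livers, and at each of the 6 times the 4 cdHFD livers lay below the 4 NC livers for every enzyme.

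Markers of several liver cell types moved with the diet as well. The 6 hepatocyte markers were called lower in both genotypes, with log2 changes from -1.23 to -0.90 in Hep-Bmal1WT and from -1.27 to -0.58 in Hep-Bmal1KO livers. Their summed level was 86813 to 201589 CPM on NC and 52256 to 89276 CPM on cdHFD in Hep-Bmal1WT livers. The 6 macrophage markers rose in both, by a median of 1.55 and 1.58, the 5 markers of stellate cells and fibroblasts rose by a median of 2.41 and 3.04, and 4 and 3 of 5 leukocyte markers rose. Endothelial markers split, with 2 of 4 higher and 1 lower in each genotype, and 1 and 2 of 4 cholangiocyte markers were higher. No marker was at 0 in all libraries of a group, and the part of these shifts in the enzyme result was not tested. In bulk liver, fewer cells of a type and less RNA per cell cannot be told apart. On NC the summed hepatocyte markers had a median of 147010 CPM in Hep-Bmal1WT and 96132 CPM in Hep-Bmal1KO livers with overlapping ranges. The summed macrophage markers had medians of 254 and 228 CPM. The part of these marker levels in the difference between labels was not tested either.

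The rest of the sterol pathway was read from lists drawn up by role, with earlier results of these data known. Of the later sterol enzymes, 5 of the 6 listed were tested and 5 of 5 were called lower on cdHFD in both genotypes, from Tm7sf2, a sterol reductase, at -4.17 (SE 0.089) to Lbr, a reductase that is also a nuclear envelope protein, at -0.33 (SE 0.073) in Hep-Bmal1WT livers. Of the mevalonate enzymes 8 of 9 were called lower in both genotypes, with medians of -2.70 and -3.22. The exception was Ggps1, which makes geranylgeranyl pyrophosphate off the route to sterols, at 0.06 (SE 0.12) and 0.12 (SE 0.093). Genes of sterol sensing and uptake were lower in 6 of 7 and 7 of 7 cases, and 6 of 6 genes on the fatty acid side of SREBP1 were lower in both. Among 6 genes of sterol disposal, 3 were lower in Hep-Bmal1WT, and 3 were lower and 1 higher in Hep-Bmal1KO livers, with medians of -0.16 and -0.17.

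Between the labels on NC, which the choice of genes used, the mevalonate enzymes stood nearest to the 9 enzymes, with 9 of 9 values above 0 and a median of 0.65. The later sterol enzymes had 4 of 5 above 0 and a median of 0.17, led by Tm7sf2 with 0.58 (SE 0.060). The genes of sterol sensing and uptake had 4 of 7 above 0 and a median of 0.06, among them Insig1, a sterol sensor that is itself an SREBP2 target, with -0.17 (SE 0.11). Genes on the SREBP1 side had 2 of 6 above 0 and a median of -0.17, and those of sterol disposal had 5 of 6 above 0 and a median of 0.09. On cdHFD the medians of the 5 lists lay between -0.21 and 0.12.

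The day profile was fitted in each group of 24 livers with a cosine and a sine term of 24 h. The times of a group were split over plate columns, and the part of the plate column in these profiles was not tested. In Hep-Bmal1KO livers on NC 8 of 9 enzymes were called rhythmic, against 4.35% of all genes in that group. In Hep-Bmal1WT livers on NC 2 were called, Sc5d and Dhcr7, against 18.7% of all genes. On cdHFD 3 were called in Hep-Bmal1WT livers, Cyp51, Hsd17b7 and Dhcr7, against 14.3%, and 0 in Hep-Bmal1KO livers, against 3.81%. In that last group 4 enzymes had an unadjusted p under 0.05 in edgeR's test, against 19.2% of all genes, and an F test of the cosine fit on log2 CPM called 0.

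The shared profile in Hep-Bmal1KO livers on NC had its trough at ZT 10. The lowest mean of the 6 times was at ZT 10 for 8 of 9 enzymes, and the highest was at ZT 2 for 7. Fdft1 had a mean of 192 ± 26.6 CPM (SD, n = 4) at ZT 10 and 436 ± 72.4 CPM (SD, n = 4) at ZT 2, and Sqle had 69.1 ± 13.2 CPM at ZT 10 and 168 ± 39.8 CPM at ZT 18. The 4 Fdft1 values at ZT 10 lay between 155 and 218 CPM and did not overlap with those at ZT 2, which lay between 377 and 539 CPM. The amplitude (log2, mean to peak) was 0.30 to 0.57 with a median of 0.46, from Nsdhl, which was not called at an adjusted p of 0.058, to Msmo1. Fitted peaks lay between ZT 20.9 (SE 0.71 h) for Sqle and ZT 3.3 (SE 0.93 h) for Sc5d, that is in the late night and early morning.

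In Hep-Bmal1WT livers on NC amplitudes were 0.13 to 0.42 with a median of 0.25, and 7 of 9 enzymes had their highest mean at ZT 6. The lowest mean was at ZT 10 for 5 of 9 in this group too. On cdHFD it was at ZT 10 for 3 of 9 in Hep-Bmal1WT and 4 of 9 in Hep-Bmal1KO livers. Dhcr7 had the largest amplitude, 0.42 (SE 0.088), with a fitted peak at ZT 23.3 (SE 0.81 h) and an adjusted p of 0.0049 (edgeR). It averaged 70.9 ± 14.9 CPM (SD, n = 4) at ZT 10 and 138 ± 8.49 CPM (SD, n = 4) at ZT 22. Sc5d had an amplitude of 0.27 (SE 0.071), a peak at ZT 5.4 (SE 1.0 h) and an adjusted p of 0.017 (edgeR). Livers of the same group and time also differed more from each other in Hep-Bmal1WT than in Hep-Bmal1KO mice on NC, with a median SD over the enzymes of 0.43 against 0.25 on the log2 scale. At ZT 2, for example, Fdft1 ran from 126 to 377 CPM in 4 Hep-Bmal1WT livers. The mean log2 CPM of the 9 enzymes there was 6.49 and 6.44 in the males and 7.15 and 7.46 in the females. The female at 7.15 was the library with the fewest reads, 1861740. Sex and the discordant libraries were left in this spread, and their part in it was not tested. The amplitude difference, Hep-Bmal1KO minus Hep-Bmal1WT, was above 0 for 8 of 9 enzymes and ran from -0.01 (SE 0.14) for Nsdhl to 0.33 (SE 0.14) for Hsd17b7. It comes from the contrast that the choice of genes used and was not tested, so the unequal numbers of rhythmic calls do not show that the profiles differ.

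The count of rhythmic enzymes in Hep-Bmal1KO livers on NC was 6 without the discordant libraries, where Cyp51 and Msmo1 had adjusted p of 0.055 and 0.054 (edgeR), and it was 3, 4, 7 and 4 without replicate 1, 2, 3 and 4 of every group. In Hep-Bmal1WT livers it was then 1 to 2 on NC and 0 to 2 on cdHFD.

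**Figure D4:**
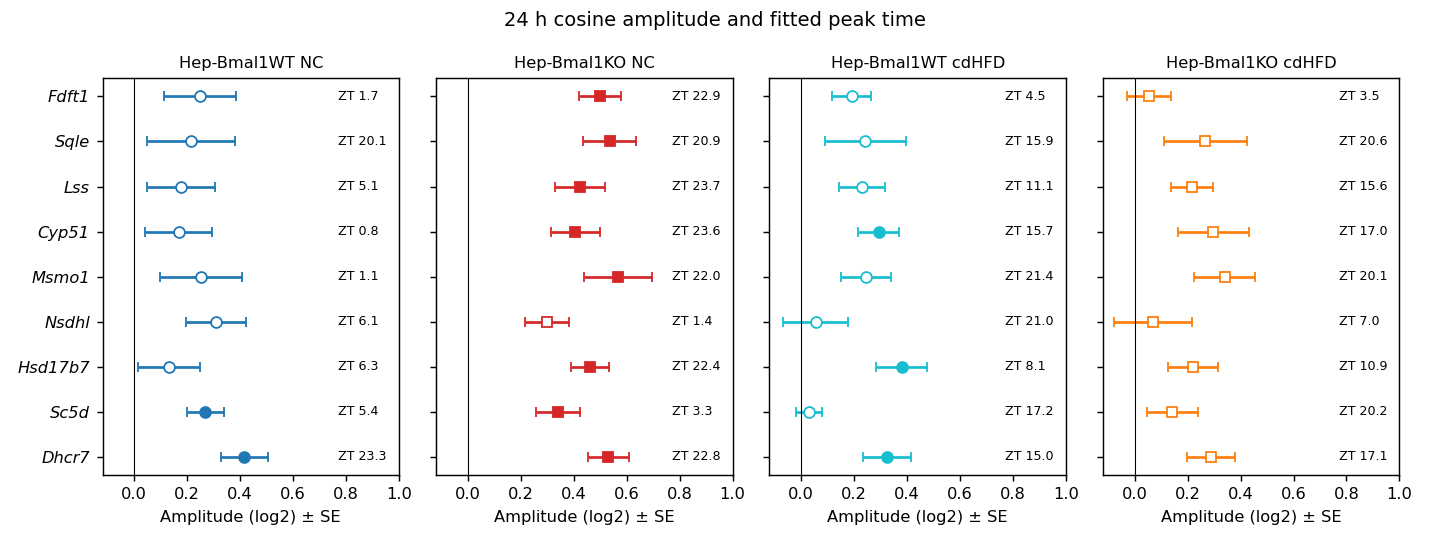
Amplitude of the 24 h cosine fit in log2 units with its SE for each enzyme in the 4 groups of 24 livers, with filled symbols where edgeR's adjusted p was under 0.05 and the fitted peak time printed at the right of each row. Filled symbols number 2, 8, 3 and 0 from left to right, and the median amplitudes are 0.25, 0.46, 0.24 and 0.22.

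The change of the day profile with diet was tested within each genotype. In Hep-Bmal1WT livers Dhcr7 was called with an adjusted p of 0.0016 (edgeR), against 6.13% of all genes. Its fitted peak was at ZT 23.3 on NC and at ZT 15.0 (SE 1.1 h) on cdHFD, with amplitudes of 0.42 and 0.32. In Hep-Bmal1KO livers Lss, Hsd17b7 and Dhcr7 were called, with adjusted p of 0.026, 0.0077 and 0.019, against 0.907% of all genes. Their peaks there were at ZT 23.7, ZT 22.4 and ZT 22.8 on NC and at ZT 15.6, ZT 10.9 and ZT 17.1 on cdHFD, with amplitudes of 0.42, 0.46 and 0.53 falling to 0.22, 0.22 and 0.29. No cdHFD profile of these 3 passed the rhythm test in Hep-Bmal1KO livers, and the SE of those peak times was 1.4, 1.6 and 1.2 h. With 3 mice a time in place of 4, the count was 0 to 1 in Hep-Bmal1KO and 1 to 2 in Hep-Bmal1WT livers.

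Fitted over both diets and both genotype labels together, the difference between the sexes was small. Over all 96 livers, 2 of 9 enzymes were called higher in females, against 8.99% of all genes: Fdft1 by 0.21 (SE 0.058) and Sc5d by 0.15 (SE 0.052) on the log2 scale, with adjusted p of 0.0044 and 0.032 (edgeR). None was called lower in females, against 8.24% of all genes, and 0 at an unadjusted p under 0.05, against 13.6%. DESeq2 called 3 enzymes, Hsd17b7 with them. Without replicate 2 of every group 0 were called, and without replicate 1 or replicate 3 there was 1. In most groups replicates 1 and 2 are the males, so the mice left out of each of these fits were mainly of a single sex. Nsdhl, the X-linked enzyme, had a difference of -0.05 (SE 0.075).

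Within Hep-Bmal1WT livers the fitted fall on cdHFD was larger in females for 8 of 9 enzymes, by up to 0.79 (SE 0.28) on the log2 scale for Sqle, with Nsdhl the exception at 0.12 (SE 0.23). The interaction of sex and diet was called for 0 of 9 enzymes by edgeR, against 3.02% of all genes, and 6 of 9 had an unadjusted p under 0.05, against 14.6% of all genes. Without the discordant libraries Lss and Sqle were called, with differences of -0.82 and -1.02 and adjusted p of 0.0021 and 0.014. The median diet effect was -2.31 in males alone and -2.95 in females alone in Hep-Bmal1WT livers, and -3.27 in males alone and in females alone in Hep-Bmal1KO livers.

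The enzymes also varied together between livers of the same group and time. On NC the residual from the group mean correlated between enzymes with a median Pearson r of 0.68 over 36 pairs, from 0.37 for Msmo1 and Sc5d to 0.91 for Fdft1 and Sqle, and 32 pairs were above 0.5. On cdHFD the median was 0.18, from -0.31 to 0.60, and 4 pairs were above 0.5. Reads on cdHFD were few for some enzymes but not for all, with a median of 23 for Sqle and 1234 for Sc5d in Hep-Bmal1WT livers. Counting error is wider where reads are few, and libraries share depth and plate, so these are descriptions over 48 livers. The residuals also keep differences between the sexes and the discordant libraries. The part of counting error, sex and the discordant libraries in the correlations was not tested.

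**Figure D5:**
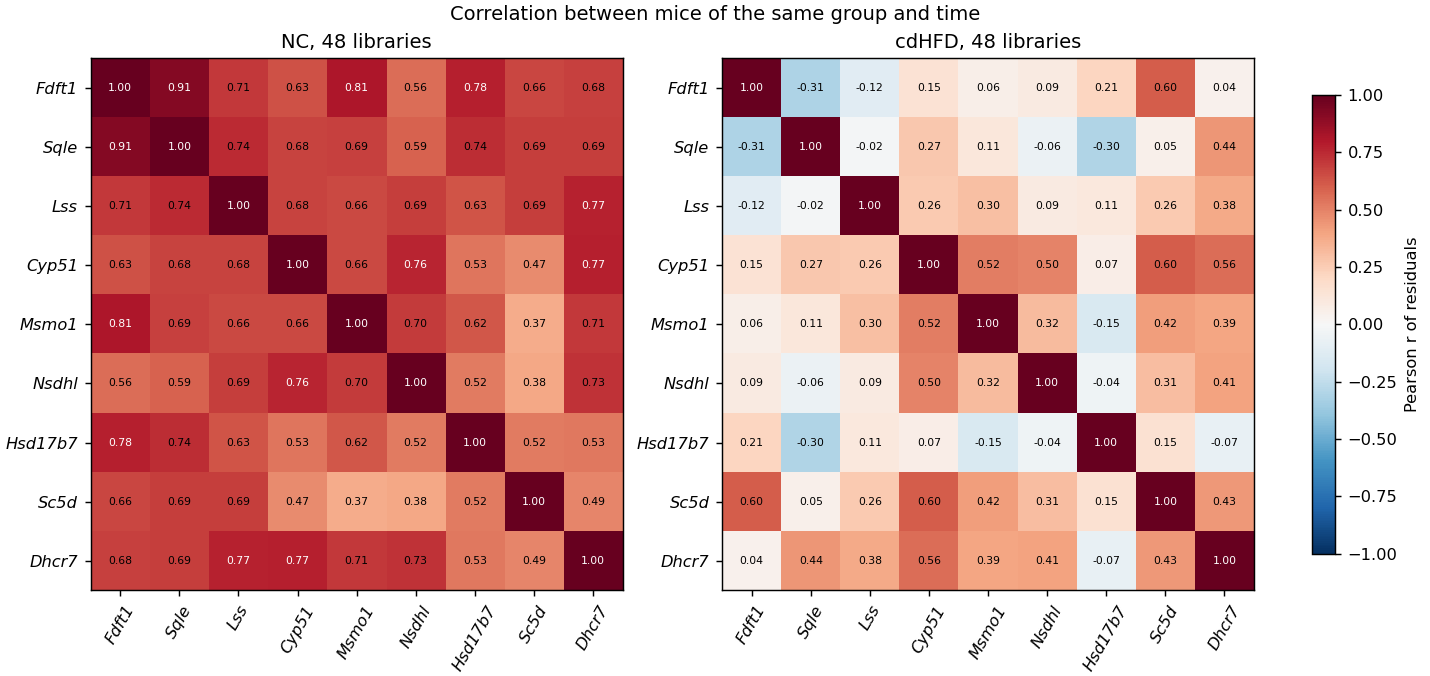
Pearson correlation between the enzymes of the residuals of log2 CPM from the mean of each combination of label, diet and time, over 48 libraries on NC (left) and 48 on cdHFD (right). Values are 0.37 to 0.91 on NC and -0.31 to 0.60 on cdHFD.

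Genes outside the 9 were ranked by their correlation with the enzymes' mean standardised level. Over the values of all 96 livers, which are dominated by the diet, Tm7sf2 was the most alike with r of 0.99, followed by Fdps, the synthase that supplies squalene synthase, with 0.99, and by the retinol dehydrogenase Rdh11 and the acetyl-CoA synthetase Acss2, both with 0.98. At the other end stood Lgals3, Gpnmb and Mmp12, genes known from lipid-laden macrophages, with -0.97, -0.96 and -0.96. Over the residuals within group and time, Hmgcs1, an early enzyme of the mevalonate pathway, came first with 0.81, Rdh11 had 0.72, Fdps 0.66 and Acss2 0.59. Of the 10 most alike, 4 over the values and 5 over the residuals were mevalonate enzymes.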

How the data were processed

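Liver RNA of 96 mice was sequenced by BRB-seq. The authors demultiplexed the reads, aligned them to mm10 with STAR and deposited raw read counts per gene (HTSeq and featureCounts are both named, with versions and strand setting not given in the sources used here). Of all reads, 14.8 to 34.0% were not aligned and 5.65 to 11.3% fell on no gene, and these entries were left out. Replicates are separate mice.

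Counts were scaled by TMM and tested with edgeR 4.0.16 in R 4.3.3 (quasi-likelihood F test, two-sided) over 15548 genes with at least 100 counts in sum, with ZT as a factor, and p-values were adjusted by Benjamini-Hochberg with a threshold of 0.05. Rhythm was a joint test of cosine and sine terms of 24 h. Log2 CPM used a prior count of 2. Sex differences were female minus male. The fits were tested on simulated data. Alternatives were DESeq2 1.42.0, its size factors, other count filters, a cosinor F test, single sexes and leaving out libraries. The text names the 9 enzymes and the genes of the pathway and marker lists, with the genes most like them in level. Members and lists were chosen with earlier results of these data known. Promoter motifs were not analysed here, and some listed genes are not reported by name.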

Additional observations from a re-analysis of the deposited data

Results flagged for a closer look

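In 8 of 216 groups of 4 livers the highest or lowest value lay far from the other three, by Dixon's criterion at the level where chance alone marks about 1 group in 20. On NC this was a Hep-Bmal1KO liver at ZT 10 with 49.5 CPM of Sqle, where the next value was 74.4 CPM. The others were on cdHFD. Nsdhl was high in a Hep-Bmal1WT liver at ZT 22, with 4.57 CPM against 3.75 CPM in the next, and low in a Hep-Bmal1KO liver at ZT 10, with 2.65 CPM against 5.88 CPM. Hsd17b7 was low in a Hep-Bmal1KO liver at ZT 18, with 8.55 CPM against 11.1 CPM. Sc5d was high in Hep-Bmal1KO livers at ZT 14, with 234 CPM against 139 CPM, and at ZT 18, with 254 CPM against 153 CPM. The first of these libraries was among the 7 discordant with their genotype label. Dhcr7 was low in Hep-Bmal1WT livers at ZT 6, with 18.1 CPM against 21.7 CPM, and at ZT 18, with 18.1 CPM against 26.8 CPM.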

How the results depend on the processing

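The diet effect kept its direction and its call for all 9 enzymes in both genotypes under every alternative run. No value that passed its test changed sign, but small values that did not pass, or had no test, did. The genotype difference on cdHFD went from 0.08 to -0.08 for Lss in males alone, from 0.04 to -0.17 for Nsdhl and from 0.14 to -0.03 for Sqle in females alone, and from -0.04 to 0.03 for Hsd17b7 in females alone. Without replicate 1 it was 0.05 for Hsd17b7, and for Nsdhl it was -0.10 without replicate 1 and without replicate 2. The diet effect by sex of Nsdhl went from 0.12 to -0.02 without the discordant libraries and without replicate 2. The sex difference changed sign for Lss and in the median over the enzymes (0.06 to -0.01) without replicate 1, and for Cyp51 and Nsdhl without replicate 4. The median diet effect in Hep-Bmal1WT was -2.953 in females alone and -2.312 in males alone. Rhythm counts moved most when a replicate number was left out of every group, which leaves fewer mice at each time. For the enzymes they were then 1 to 2 in Hep-Bmal1WT NC, 3 to 7 in Hep-Bmal1KO NC, 0 to 2 in Hep-Bmal1WT cdHFD and 0 to 1 in Hep-Bmal1KO cdHFD, and for the rhythm change with diet 1 to 2 in Hep-Bmal1WT and 0 to 1 in Hep-Bmal1KO. Over all genes the rhythm counts, in the same order, were 1445 to 1920, 155 to 189, 900 to 1509 and 159 to 311, against 2907, 676, 2231 and 592 with all mice, and the rhythm changes were 351 to 526 and 3 to 17, against 953 and 141. The sex difference was then called for 0 to 2 enzymes and 1585 to 1930 of all genes, against 2679, and the diet effect by sex for 0 to 1 enzymes and 157 to 318 of all genes, against 469.

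With no filter on low counts the sex difference was called for 4 enzymes, and the diet effect by sex for 3 enzymes and 819 genes. Without the discordant libraries the diet effect by sex was called for 2 enzymes. The rhythm change in Hep-Bmal1WT was called for 2 enzymes with DESeq2 size factors and for 2 with the stricter filter. At an unadjusted p under 0.01, 1 enzyme and 1318 genes were rhythmic in Hep-Bmal1KO cdHFD and 1403 genes in Hep-Bmal1KO NC, and a cosinor F test on log2 CPM called 355 and 327 genes there. The causes of these shifts were not tested. No paired analysis was possible because the replicate numbers only name the mice in the order of deposit. In most groups replicates 1 and 2 are males and 3 and 4 females, so leaving out a number removes mainly mice of a single sex, which bears on the counts for the sex difference and the diet effect by sex. Depth limits the low levels on cdHFD, where Sqle had as few as 8 reads in a library.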
